A study of Mus with 4 samples.

Results

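Growth factors that cells release to act on their neighbours, together with the binding proteins that hold insulin-like growth factors outside the cell, were examined in podocytes given the active form of OASIS. The set holds 40 genes, chosen by name from 8 families, and every array row that carries one of these gene symbols was taken, which gave 80 of the 56605 probes on the array. The deposited Gene Ontology terms place all 40 genes in the extracellular region or space. RNA came from an immortalized murine podocyte line that had been differentiated for 10 to 14 days at 37 °C without interferon-γ. The comparison was between 2 groups of 2 samples each, podocytes given a lentivirus for the control fluorescent protein Venus and podocytes given a lentivirus for the N-terminal, active fragment of OASIS (Creb3l1), a transcription factor that is otherwise held in the endoplasmic reticulum membrane. Both vectors were applied for 24 h in medium with 10% FBS and 8 μg/mL polybrene, at 200 to 500 infectious particles per cell, and RNA was taken 48 h after the vectors were added. The labels do not say whether samples of a group were separate cultures, so the p-values measure only the spread between these samples.

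Podocytes are the epithelial cells that wrap the glomerular capillaries. They are a main source of VEGF-A for the endothelium beneath them, and they also send factors to mesangial cells and receive them. VEGF, PDGF, FGF, EGF and HGF family ligands act through receptor tyrosine kinases on the surface of nearby cells. IGF-binding proteins hold IGF-1 and IGF-2 in the extracellular space and so set how much of either reaches its receptor. Angiopoietins act on the endothelial receptor TEK, whereas the angiopoietin-like proteins do not, and ANGPTL4 is known as an inhibitor of lipoprotein lipase and as a secreted product of podocytes in nephrotic disease.

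Every sample had a 1-colour array to itself, and the 4 arrays shared 1 slide and 1 scan. Values are normalized log2 intensities, in which 0 is the 75th percentile of an array's spots, and a difference of 1 is a 2-fold difference. Levels of different probes cannot be set against each other on this scale. Between 33938 and 34418 of the 59305 spots of an array were well above background, and none was saturated. The probe of Creb3l1 differed by -0.17 on the log2 scale (SE 0.10, adjusted p = 0.298 by limma), and since its place on the transcript is not known here, it does not test whether the insert was expressed. Of 14 podocyte markers, 10 were well above background on both arrays of each group, whereas Ptpro and Tcf21 were not on any array. Endothelial markers that could bear on VEGF and angiopoietin genes were partly present. Their summed level, as a multiple of the 75th percentile, was 1.13 to 1.24 on the Venus arrays and 2.07 to 2.81 on the OASIS arrays, with log2 fold changes of 1.22 for Egfl7 and 1.11 for Plvap, both past the limits given below, of 0.26 for Pecam1 and of -0.59 for Esam, while Cdh5, Emcn and Vwf were not well above background on any array. The summed level of the leukocyte markers was 16.6 to 18.0 with Venus and 12.6 to 13.3 with OASIS, that of the mesangial or smooth muscle markers was 71.2 to 71.9 with Venus and 58.5 to 59.5 with OASIS, and that of the tubular markers was 12.1 to 14.3 with Venus and 14.7 to 17.3 with OASIS. Bright probes weigh most in these sums. In the tubular list Lrp2 rose by 1.62 on the log2 scale by its brightest probe, whereas the bright member Cdh16 gave 0.080. Another Lrp2 probe gave 1.68, but its remaining tested probes gave -0.098, 0.012 and -0.16. The part of these cells or genes in the results was not tested. In a bulk sample, fewer cells that express a gene and less of its RNA per cell cannot be told apart.

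Testing was limited to probes that were well above background on both Venus or both OASIS arrays, which held for 52 of the 80 member probes and for 34 of the 40 genes. On no array was any probe of Angpt1, Areg, Ereg or Hgf well above background. Fgf9 reached this level on 1 Venus array and Igfbp5 on 1 OASIS array, so neither was tested. A total of 32 genes were well above background on both arrays of each group. A gene is described by its brightest tested probe, and was called changed when its fold was over 2.0 or under 0.5 and its limma p, adjusted by Benjamini-Hochberg across every tested probe, was under 0.1.

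By these limits 5 of the 34 tested genes changed with OASIS. Fgf5, Angptl4 and Igfbp3 rose, and Fgf18 and Fgf2 fell. Across the whole array 8.06% of tested genes changed, 6.21% upward and 1.85% downward. Fgf5 was tested only through its OASIS arrays, the group where it was high. Under a filter on all 4 arrays it was not tested, and Angptl4 and Igfbp3 were the members that rose. Probe by probe, 7 of the 52 changed, 4 upward and 3 downward, against 8.36% of all probes tested, 5.89% upward and 2.47% downward. The median log2 fold change was -0.15 over the 34 genes and -0.056 over all 16318 genes tested. An adjusted p under 0.1 without the fold limit was met by 8 genes that were higher with OASIS and 10 that were lower, where the shares over all genes were 18.6% and 18.1%. By the methods' t-test, after the same adjustment, 0 of the 34 genes passed both limits, against 2.45% of all genes tested. At an unadjusted p under 0.05, that test passed 3 of the 34 with the fold limit, against 6.6% of all genes. An unadjusted limma p under 0.05, with no fold limit, was met by 40.9% of all genes tested and by 8 members that were higher and 12 that were lower with OASIS.

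**Figure D1:**
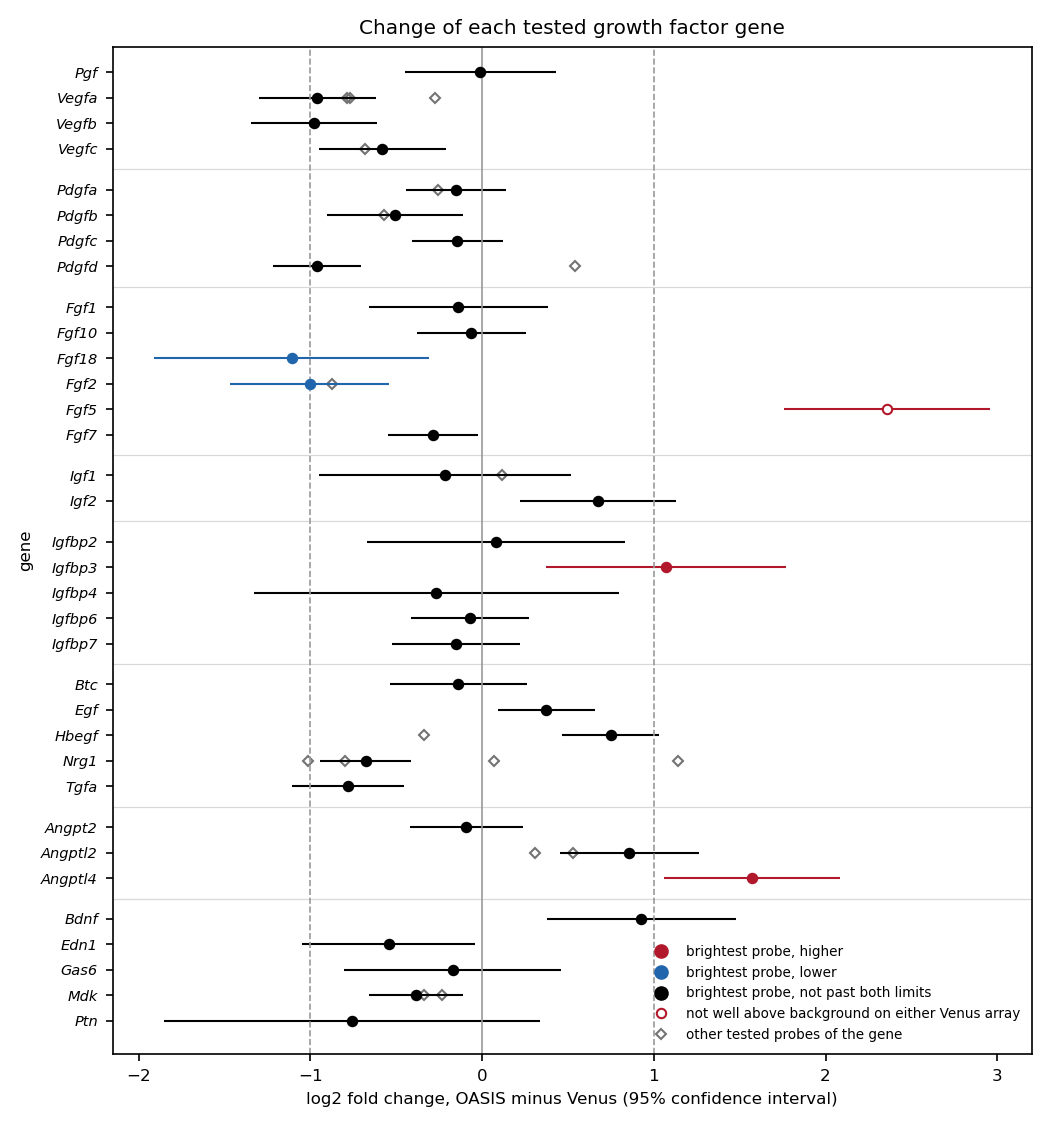
Log2 fold change of the 34 tested growth factor genes between the OASIS and the Venus arrays, by family, with the 95% confidence interval from limma; circles are the brightest probe of a gene, diamonds its other tested probes, and dashed lines mark 2-fold. The open circle of Fgf5 is a fitted value whose Venus arrays were not well above background, and Vegfa, Vegfb, Pdgfd and Fgf2 lie close to the lower 2-fold line.

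Genes of the VEGF family, which direct the growth and upkeep of blood and lymph vessels, all had lower mean levels with OASIS, by differences from near 0 to nearly 2-fold. Of the 4 genes, 3 had an adjusted p under 0.1, each lower with OASIS, where 18.1% of all genes tested were lower at that limit. But 0 of the 4 passed the fold limit as well, by limma or by the methods' t-test. Vegfa, the main endothelial growth factor made by podocytes, was at 3.54 and 3.28 on the Venus arrays and at 2.44 and 2.47 on the OASIS arrays. The groups did not overlap, and the log2 fold change of -0.96 (95% confidence interval -1.30 to -0.62, limma adjusted p = 0.0135) fell short of 2-fold by little. Its 3 other tested probes also had lower means with OASIS, with log2 fold changes of -0.79 (adjusted p = 0.0125), -0.77 (adjusted p = 0.0634) and -0.28 (adjusted p = 0.217) by limma. Vegfb, which acts through FLT1, was at -1.30 and -1.29 with Venus and at -2.43 and -2.12 with OASIS. That difference, -0.98 (SE 0.14, limma adjusted p = 0.0149), was the largest of the family, again without overlap of the groups. The log2 fold change of Vegfc, the ligand of the lymphatic receptor FLT4, was -0.58 (limma adjusted p = 0.0477). Pgf, the placental growth factor, had overlapping groups and a log2 fold change of -0.011.

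Vegfa passed the 2-fold limit after quantile normalization, at -1.004, and without Venus replicate 2, at -1.09. Vegfb did so with arrays scaled to their median, at -1.003, and without OASIS replicate 2, at -1.13.

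In the PDGF family, whose ligands act on mesangial cells and other cells of mesenchymal origin, 0 of 4 genes passed both limits by limma or by the methods' t-test. By limma, 2 had an adjusted p under 0.1 and an unadjusted p under 0.05. Over all genes tested, 36.8% met the adjusted limit and 40.9% the unadjusted one. Pdgfd, a ligand of the PDGF receptor β, was at 0.12 and 0.16 on the Venus arrays and at -0.84 and -0.81 on the OASIS arrays by its brighter probe. The arrays of a group lay very near each other, and the log2 fold change was -0.96 (SE 0.098, limma adjusted p = 0.00806). Its other probe, annotated to the same transcript, went the opposite way, from -1.22 and -1.17 to -0.82 and -0.49, a log2 fold change of 0.54 (limma adjusted p = 0.0606). Pdgfb, the ligand that podocytes' endothelial neighbours use to recruit mesangial cells, was lower on average by both probes, at -0.51 (limma adjusted p = 0.0737) and -0.57 (adjusted p = 0.185). Pdgfa and Pdgfc differed by less, with log2 fold changes of -0.15 and -0.14 and adjusted p-values of 0.364 and 0.348 by limma.

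Of the 6 tested genes of the FGF family, 1 rose and 2 fell, where 6.21% of all genes tested rose and 1.85% fell. Fgf5, best known as the signal that ends hair growth, was at -7.12 and -6.49 on the Venus arrays, neither of them well above background, and at -4.45 and -4.44 on the OASIS arrays, both well above it. Its rise is therefore given as a bound, which holds for the main background treatment alone. For this bound each Venus array was given the higher of its own signal and the dimmest signal well above background. The OASIS mean was 3.20-fold higher than the Venus mean so taken, or 1.68 on the log2 scale. The fitted difference was 2.36 (limma adjusted p = 0.00736), for a gene that was tested only through its OASIS arrays. After normexp background correction, the difference was 0.63, which is smaller than the bound and no longer past the fold limit.

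Fgf18, a factor of bone and cartilage growth, was at 1.48 and 1.97 on the Venus arrays and at 0.25 and 0.98 on the OASIS arrays. The groups were apart, but each was spread, and the fall of 1.11 on the log2 scale (SE 0.30) had a limma adjusted p of 0.0617. It no longer passed without Venus replicate 1 (adjusted p = 0.103), without Venus replicate 2 (log2 fold change -0.87) or without OASIS replicate 1 (-0.74). Fgf2, a broadly acting mitogen bound by heparan sulphate, was at -2.51 and -2.53 with Venus and at -3.30 and -3.75 with OASIS. It fell by 1.004 on the log2 scale (SE 0.18, limma adjusted p = 0.0232), just past 2-fold at 2.01-fold lower, and its other tested probe stood at -0.88 (adjusted p = 0.0309). The call was lost after normexp correction (-0.59), with the mean of its probes (-0.94), without Venus replicate 1 (-0.99, adjusted p = 0.107 by limma) and without OASIS replicate 2 (-0.78). Fgf7, the keratinocyte growth factor, gave -0.29 (limma adjusted p = 0.102), a difference that was small but without overlap of the groups. Fgf1 (-0.14) and Fgf10 (-0.064) had overlapping groups.

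**Figure D2:**
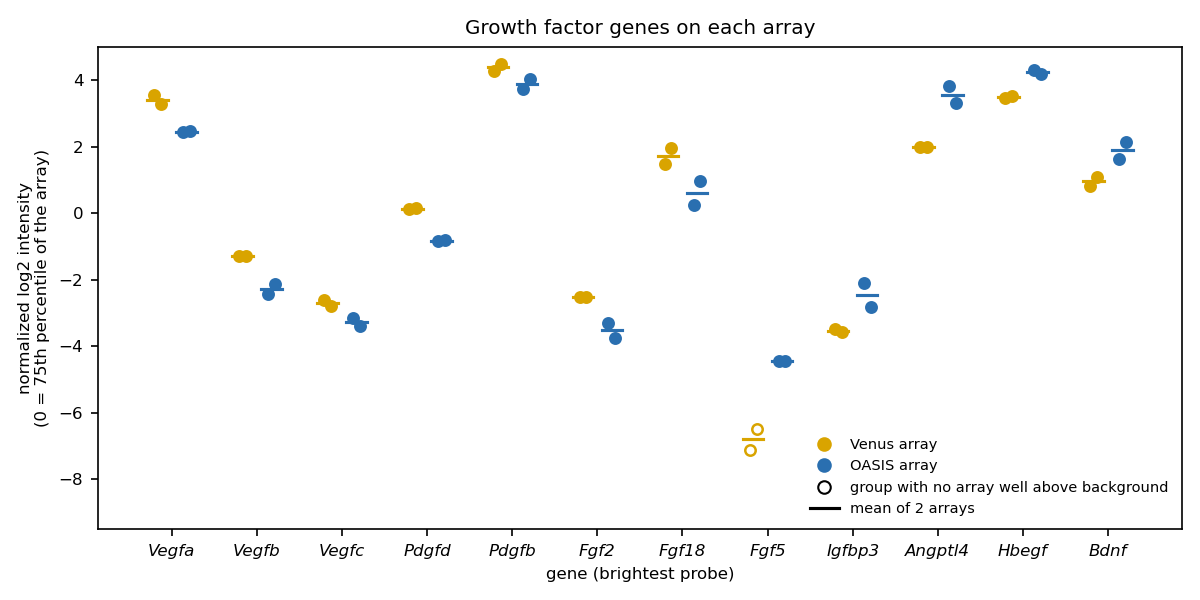
Normalized log2 intensity of 12 growth factor genes on each array by their brightest probe; points are arrays, bars the mean of the 2 arrays of a group, and open points mark a group in which no array was well above background. The 12 genes were chosen for display with their values known, and Fgf5 is the gene with open Venus points.

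The ligands IGF-1 and IGF-2, which drive growth and survival through the IGF-1 receptor, did not pass both limits. Igf1 was at 2.95 and 3.22 with Venus and at 2.50 and 3.24 with OASIS, so that the groups overlapped, with a log2 fold change of -0.22 (SE 0.28, limma adjusted p = 0.605). Igf2 was higher on both OASIS arrays, at -2.57 and -2.77 against -3.53 and -3.15, a log2 fold change of 0.67 (limma adjusted p = 0.0536) that was short of 2-fold.

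Of the 6 IGF-binding proteins, 5 were tested and 1 changed, against 8.06% of all genes tested. Igfbp3, the main carrier of IGF in the circulation, was at -3.48 and -3.59 on the Venus arrays and at -2.09 and -2.83 on the OASIS arrays. Both OASIS arrays were above both Venus arrays, and the rise was 1.07 on the log2 scale (SE 0.26, limma adjusted p = 0.0494). Without OASIS replicate 1, the higher array, it was 0.70, and without Venus replicate 1 or Venus replicate 2 the adjusted p was 0.145 and 0.167, none of them past both limits. After normexp correction it was 0.74, short of 2-fold. The other members of the family showed no such separation. Igfbp2 was at 4.44 and 4.95 with Venus and at 4.46 and 5.10 with OASIS, and its difference of 0.082 (95% confidence interval -0.67 to 0.83) was smaller than the distance between arrays of a group. Igfbp7, a secreted binding protein with low affinity for IGF, differed by -0.15 (95% confidence interval -0.53 to 0.22). Igfbp4 (-0.27) and Igfbp6 (-0.071) also had overlapping groups, and Igfbp4 had the widest interval of the family, from -1.33 to 0.80.

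Genes of the EGF family encode ligands of the EGF receptor and its relatives, most of them shed from the cell surface. By the brightest probe, 0 of the 5 tested genes passed both limits by limma or by the methods' t-test. By limma, 2 were higher and 2 lower at an adjusted p under 0.1 and at an unadjusted p under 0.05. These p limits were met by 36.8% and 40.9% of all genes tested. Hbegf, a heparin-binding ligand that is induced in glomerular injury, was at 3.47 and 3.54 with Venus and at 4.32 and 4.19 with OASIS. The log2 fold change was 0.75 (SE 0.11, limma adjusted p = 0.0154). A second, much dimmer Hbegf probe, annotated to a cDNA clone, gave -0.34 (adjusted p = 0.0703). Egf was higher by 0.37 (limma adjusted p = 0.0688), and Tgfa, another ligand of the EGF receptor, gave -0.78 (limma adjusted p = 0.0188), with values of -4.00 and -3.97 for Venus and of -4.88 and -4.65 for OASIS. Btc, the gene of betacellulin, had overlapping groups and a log2 fold change of -0.14.

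Nrg1, the gene of neuregulin 1, is a ligand gene for ERBB3 and ERBB4 that gives rise to many isoforms, and its 5 tested probes did not go one way. The brightest, A_55_P1985433, was at 6.69 and 6.66 on the Venus arrays and at 6.03 and 5.95 on the OASIS arrays, a log2 fold change of -0.68 (limma adjusted p = 0.0165). Probe A_55_P2874801 fell past both limits, from 2.87 and 2.71 to 1.85 and 1.70, by 1.02 on the log2 scale (limma adjusted p = 0.0108). Probe A_52_P158772 rose past both limits, from -1.19 and -0.90 to 0.01 and 0.18, with a log2 fold change of 1.14 (limma adjusted p = 0.0122). The rising probe and the brightest probe are annotated to the same RefSeq transcript, and the groups did not overlap by either of them. Without Venus replicate 1 neither call held, at 0.996 for A_52_P158772 and -0.94 for A_55_P2874801, and the latter was also lost without OASIS replicate 2 (-0.94). Of the remaining probes, A_52_P369769 gave -0.80 (adjusted p = 0.0289) and A_55_P2811400 gave 0.069 (adjusted p = 0.673). Where on the transcripts these probes lie was not analysed here.

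**Figure D3:**
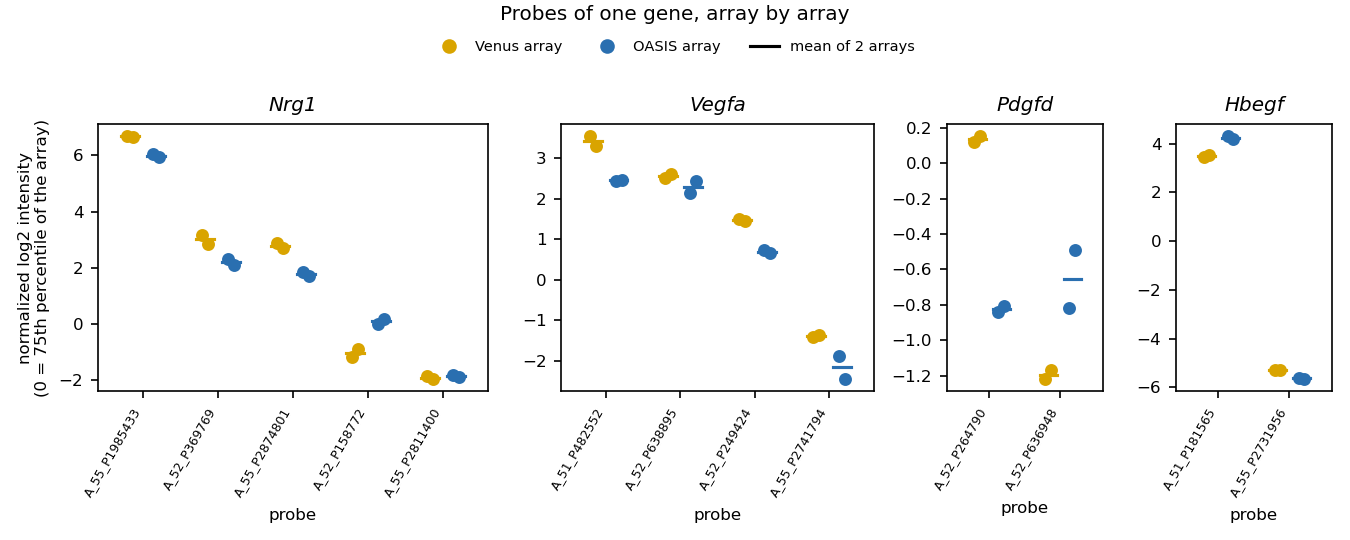
Normalized log2 intensity on each array for every tested probe of Nrg1, Vegfa, Pdgfd and Hbegf, each panel with its own scale and the brightest probe at the left; points are arrays and bars the mean of the 2 arrays of a group. The 4 Vegfa probes all have lower OASIS means, whereas Nrg1, Pdgfd and Hbegf each have probes that differ in direction.

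Among members well above background in both groups, Angptl4 had the largest rise by the brightest probe. It was at 1.99 on both Venus arrays and at 3.82 and 3.31 on the OASIS arrays, and the OASIS arrays lay well above the Venus arrays. The log2 fold change was 1.57 (SE 0.19, limma adjusted p = 0.0114), a 2.97-fold higher level. Leaving out any single array left it between 1.32 and 1.83 and past both limits. Angptl2, a relative linked to inflammation, was higher by its brightest probe, from -1.11 and -1.44 to -0.35 and -0.49. Its difference of 0.86 (limma adjusted p = 0.0244) was short of 2-fold, and its other probes gave 0.53 and 0.31, with adjusted p-values of 0.215 and 0.241. Angpt2, the antagonist of angiopoietin 1 at TEK, had a log2 fold change of -0.092 with overlapping groups, and Angpt1 itself was not well above background on any array.

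Among the remaining secreted factors, 0 of 5 tested genes passed both limits by limma or by the methods' t-test. An unadjusted limma p under 0.05 was met by 3 of them, against 40.9% of all genes tested. Bdnf, a neurotrophin whose receptor is NTRK2, came nearest. It was at 0.82 and 1.10 on the Venus arrays and at 1.65 and 2.13 on the OASIS arrays. The groups were apart, with a log2 fold change of 0.93 (SE 0.21, limma adjusted p = 0.0402), and it passed both limits without Venus replicate 2 (1.07) and without OASIS replicate 1 (1.17). Mdk, the gene of the heparin-binding factor midkine, was lower on average by each of its 3 probes, at -0.39 (limma adjusted p = 0.0593), -0.34 and -0.23. Edn1, the precursor of the vasoconstrictor endothelin 1, was at 1.83 and 1.93 with Venus and at 1.09 and 1.58 with OASIS, a log2 fold change of -0.55 (limma adjusted p = 0.105). Gas6, the ligand of the TAM receptors, differed by -0.17, within the spread of its arrays. Ptn, the gene of pleiotrophin, was well above background on 1 of the 2 OASIS arrays and gave -0.76 (SE 0.42, limma adjusted p = 0.242).

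The receptors of these ligands were read on the same arrays, from a list of 31 genes of which 21 were tested. Of these, 4 changed, Pdgfra, Mertk, Fgfr3 and Fgfrl1, and all 4 rose by their brightest probe. Across all genes tested, 6.21% rose and 1.85% fell. By the methods' t-test 3 of the 21 passed both limits, against 2.45% of all genes. Counted by probe, 6 of the 48 tested receptor probes rose and 2 fell, against 5.89% and 2.47% of all probes tested. Pdgfra, the PDGF receptor α, did not stand well above background in the Venus group (-8.35 and -8.34) and was at -2.95 and -3.31 on the OASIS arrays. It was tested only through its OASIS arrays, the group where it was high. With the main background treatment, the bound on its rise was 7.96-fold by this probe (limma adjusted p = 0.00147 for the fitted difference). By its other tested probe the bound was 1.72-fold. After normexp correction the log2 fold change of Pdgfra was 1.43, a smaller difference than that first bound. Pdgfrb, the other PDGF receptor, gave -0.097. Mertk, a receptor of GAS6, rose from -5.59 and -5.20 to -0.04 and -0.31, a log2 fold change of 5.22 (SE 0.18, limma adjusted p = 0.00174) that was 3.22 after normexp correction. The TAM receptors Axl and Tyro3 gave -0.33 and -0.17. Fgfr3, an FGF receptor, rose by 1.76 and, by its other probe, by 1.004, and Fgfrl1, an FGF receptor that lacks a kinase domain, rose by 1.19, with limma adjusted p-values between 0.00513 and 0.00973. In contrast, the log2 fold change of Fgfr2 was -0.85 (limma adjusted p = 0.0234) and that of Igf1r was -0.83 (limma adjusted p = 0.0108), neither past 2-fold, and a dimmer Igf1r probe gave 0.26.

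The EGF receptor gene Egfr had a log2 fold change of -0.54 by its brightest probe (limma adjusted p = 0.089), and -1.53 by the next brightest (limma adjusted p = 0.00721), which is past both limits and is annotated to the same transcript. The other receptor probe that fell past both limits was one of Nrp2, a co-receptor for VEGF, at -1.06 (limma adjusted p = 0.0117), while the brightest Nrp2 probe gave 0.23. Igf2r, which takes up IGF-2 for degradation, gave 0.61, and Insr, the insulin receptor, -0.54. The VEGF receptors Kdr and Flt4, the angiopoietin receptors Tek and Tie1, the endothelin receptors Ednra and Ednrb, and Alk, Erbb3, Ngfr and Ptprz1 were not tested, since none of their probes stood well above background on both arrays of either group.

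**Figure D4:**
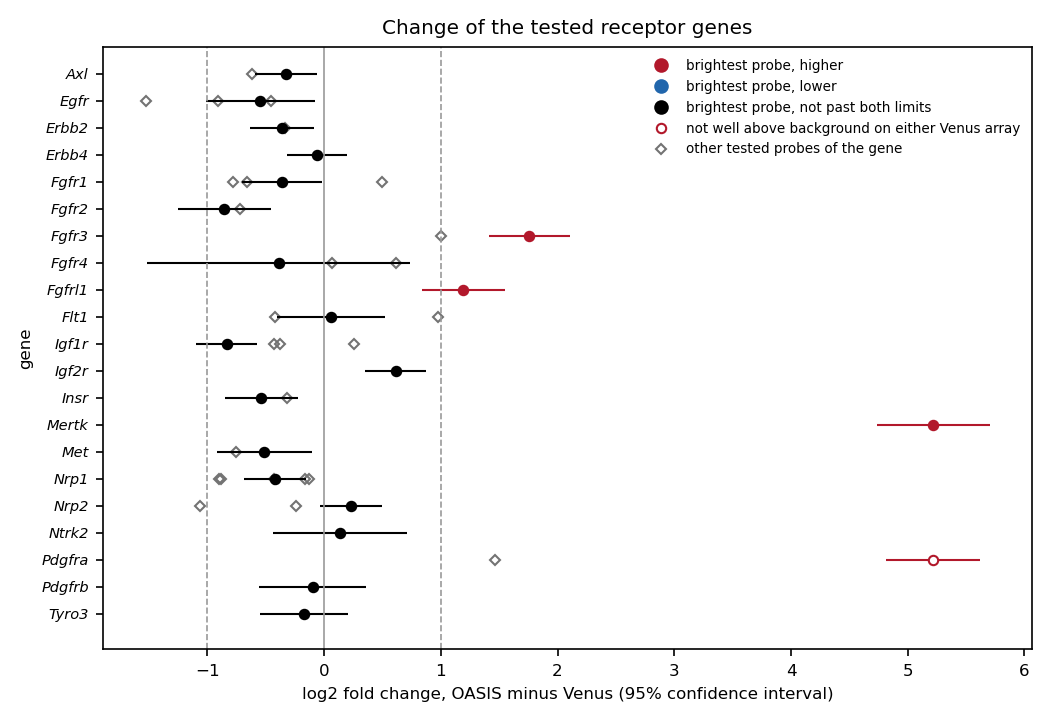
Log2 fold change of the 21 tested receptor genes between the OASIS and the Venus arrays with the 95% confidence interval from limma; circles are the brightest probe of a gene, diamonds its other tested probes, and dashed lines mark 2-fold. Pdgfra and Mertk both lie at 5.22, and the open circle of Pdgfra marks a fitted value whose Venus arrays were not well above background.

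Of 10 genes for proteins that process the ligands, or that inhibit this step, 9 were tested and 1 changed. Over all genes tested the share was 8.06%. Hgfac, the gene of a protease that activates the HGF precursor, was at -0.01 and -0.17 with Venus and at 1.51 and 1.06 with OASIS, and rose by 1.37 on the log2 scale (SE 0.18, limma adjusted p = 0.0135). Spint1, an inhibitor of that protease, gave -0.89 by its brighter probe (limma adjusted p = 0.0157) and -1.06 by the dimmer one (limma adjusted p = 0.00736), so that only the dimmer one passed both limits. Hgf was not well above background on any array, and its receptor gene Met had a log2 fold change of -0.51 (limma adjusted p = 0.0765). The sheddase gene Adam17, whose protein frees ligands of the EGF family, gave -0.14 by its brightest probe. Adam10, another sheddase gene, gave 0.15 by its brightest probe, but a dimmer one fell past both limits, by 1.28 on the log2 scale (limma adjusted p = 0.00716). Ece1, whose protein cuts the endothelin precursor, gave 0.029 by its brightest probe and -0.81 by a dimmer one.

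By limma, 0 of 16 feedback and target genes of receptor tyrosine kinases passed both limits by the brightest probe, and 0 did by the methods' t-test, while 5 had an unadjusted p under 0.05, against 40.9% of all genes. Dusp5 (log2 fold change 0.68) and Spry4 (0.62) were the higher ones of these, and Myc (-0.82), Spry2 (-0.58) and Spry1 (-0.41) the lower ones. Dusp6, a phosphatase that limits ERK, gave 0.070, and Egr1 gave -0.19, both within the spread of their arrays. Dimmer probes of Dusp4 (-1.16), Spred1 (-1.08) and Myc (-1.01) fell past both limits, with limma adjusted p-values between 0.00769 and 0.0218, where the brightest probes of Dusp4 and Spred1 gave -0.25 and -0.11.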

How the data were processed

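Per the labels, total RNA of 4 samples was labelled with Cy3, and each was hybridised to an Agilent SurePrint G3 Mouse GE v2 array. The authors deposited, from Agilent Feature Extraction 12.1.0.3, a background-subtracted intensity per spot, its median intensity and that of its background, and flags for outliers, saturation and signal well above background. They also deposited a table of the same intensities times 1 factor per array, with a detection score per spot, gene symbols and Gene Ontology terms. The array design is annotated on mm9, and no coordinates or sequences were used here.

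Control and outlier spots were left out, the 75th percentile of an array was subtracted from its log2 intensities, and repeat spots were averaged. A probe counted as well above background where at least 0.5 of its spots did. Of 56605 probes, 31598 were tested, for 16318 genes. limma 3.58.1 in R 4.3.3 fitted OASIS against Venus without a block. The fit was tested on simulated data. With 2 arrays a group, the smallest two-sided p of an exact permutation test is 0.333. Groups that do not overlap have this p, and the share of all genes without overlap was not counted. The number of arrays limits the precision.

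The text gives array values for members with a probe past both limits, for members close to them and for those whose probes disagree, and accounts for every other member. The members, the lists and the tests were chosen with earlier results of these data known, and the values of members that did not pass were chosen for printing after they were seen. Alternatives were quantile and median scaling, normexp with an offset of 50 on median intensities, the authors' scaled values, other filters, outlier spots kept, other choices of probe, the methods' t-test, an intensity trend, a stricter adjusted p (under 0.05), a replicate block, and omission of single arrays. A block for slide was not run, since there is 1 slide.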

Additional observations from a re-analysis of the deposited data

How the results depend on the processing

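With the main choices, 3 member genes rose and 2 fell (4 and 3 probes). After normexp background correction, 1 gene rose and 1 fell, and 2 probes rose. The share of all genes tested that changed was 4.72% with it and 8.06% with the main choices. With no filter on dim probes, 1 gene fell, as when probes of a gene were averaged and with an adjusted p under 0.05. The shares of all genes tested that changed were then 4.93%, 7.52% and 7.48%, in that order. With probes of a gene averaged, 3 cell type markers passed in place of 5. Taking each gene's probe of smallest p, 3 processing genes passed in place of 1, and 2 target genes in place of 0. By that choice of probe 11.8% of all genes tested changed. With the methods' t-test, 0 member genes and 0 member probes passed in either direction, 0 processing genes and 1 marker. The share of all genes tested that passed was 2.45%. Without 1 array, the number of member genes that rose was 3 each time, of those that fell between 0 and 2, of probes that rose between 3 and 4 and that fell between 0 and 5, of receptors between 4 and 5, of processing genes between 1 and 4, of target genes 0, and of markers between 3 and 5. It was without Venus replicate 1 that 0 member genes fell. A lone remaining array was taken to vary as the arrays of the other group do. The cause was not tested.

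Across 539 comparisons of single genes or probes on all 4 arrays, 517 kept their direction and their side of the threshold, and 3 changed direction. These were Pgf (0.015) and Igfbp6 (0.035) after normexp, and Igf1 (0.11) by its probe of smallest p. With 1 array left out, 13 of 168 changed direction. The ranges were -0.21 to 0.19 for Pgf, -0.17 to 0.031 for Igfbp6, -0.59 to 0.15 for Igf1, -0.23 to 0.40 for Igfbp2, -0.72 to 0.18 for Igfbp4, -0.49 to 0.14 for Gas6, -0.17 to 0.040 for Fgf10, -0.21 to 0.027 for Angpt2 and -0.37 to 0.097 for Fgf1. Igfbp3 and Fgf18 also lost their calls with no filter on dim probes, at adjusted p-values of 0.165 and 0.194. Ptn passed without OASIS replicate 1, at -1.34, and Angptl2 without Venus replicate 1, at 1.02.

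Samples carry the numbers 1 and 2 in both groups, and nothing says that a number pairs them. The deviations of same-numbered arrays from their group means correlated at 0.26 across 31599 probes. With the replicate block, 3 member genes rose and 2 fell, as without it.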

Other observations

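Some members are neighbours in the genome and had unlike signals. By the RefSeq gene table of GRCm38, 0 other protein-coding genes lie between Igfbp2 and Igfbp5 on chromosome 1. The Igfbp2 probe was well above background on all 4 arrays, whereas the 2 Igfbp5 probes were so on 1 OASIS array at most. Ereg, Areg and Btc likewise follow each other on chromosome 5 with 0 protein-coding genes between them. Btc had 1 probe that was well above background on all 4 arrays, and Ereg and Areg had none on any.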
